A study of Mus musculus with 4 samples.

Results

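The genes described here code for enzymes that cut, complete and chemically modify transfer RNAs, with the protein subunits of those enzymes. The rule that chose them used gene symbols and not their values, though it was set with earlier results of these data known. Of the 24411 genes listed in each library, 62 met it. The libraries came from mouse embryos of the ICR strain at the late two-cell stage, collected at 36 h post-insemination (hpi) after in vitro fertilization, with 10 embryos pooled in each. One group of 2 libraries was cultured with 6 µM 10074-G5 (MYC-inhibited), a small molecule that binds MYC and blocks its pairing with MAX, and the other 2 with the solvent DMSO. The series' design text puts the start of culture with the inhibitor at 6 hpi and the sample labels put it at 3 hpi. No group carried a gene deletion, so the comparison is of one dose of one compound with its solvent. The question was how the transcript levels of these enzymes differed between embryos cultured with and without the inhibitor.

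A transfer RNA (tRNA) is made as a longer precursor. RNase P removes the leader at its 5′ end, RNase Z removes the trailer at its 3′ end, a nucleotidyltransferase adds the terminal CCA to which the amino acid is later joined, and a splicing endonuclease cuts the intron out of those precursors that have one. Other enzymes then methylate, thiolate, pseudouridylate or deaminate particular bases, and the modifications in and beside the anticodon affect how codons are read. The late two-cell stage is when the mouse embryo carries out the main wave of zygotic genome activation, while stored maternal transcripts are being degraded.

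The expected counts summed to between 18206584 and 20718690 in a library, and between 14879 and 15661 genes had a count. DMSO replicate 1 stood apart. Its log2 CPM (counts scaled to the library total) correlated with those of DMSO replicate 2 at r = 0.887 across genes, whereas DMSO replicate 2 correlated with the MYC-inhibited libraries at r = 0.912 and 0.926, and these 2 with each other at r = 0.931. The stage was checked against marker genes. Of 8 markers of the two-cell stage, 7 had over 10 FPKM (fragments scaled to transcript length and library size) in all 4 libraries, and their summed FPKM was 939 in DMSO replicate 1 against 3350 to 4540 in the other libraries. The summed FPKM of 10 oocyte markers was 920 in DMSO replicate 1, 2250 in DMSO replicate 2, and 4570 and 3790 in the MYC-inhibited replicates. Of 11 cumulus and granulosa cell markers, 8 were under 1 FPKM in all libraries and Ptx3, Foxl2 and Inhba were at 0 in all of them; the sums ran from 7.51 to 22.6 FPKM, highest in DMSO replicate 1. The 7 sperm markers summed to 2.7 to 16.1 FPKM, with Prm1, Tnp2 and Smcp at 0, and the 8 blastocyst markers to 3.71 to 13. Since these sums differed between the groups and most of all in DMSO replicate 1, values without DMSO replicate 1 are given beside the differences between groups, and their part in the results was not tested.

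The tRNA enzyme genes took up a smaller share of the reads in the MYC-inhibited embryos. Their expected counts made up 0.433% of all counts in DMSO replicate 1, 0.35% in DMSO replicate 2, 0.237% in MYC-inhibited replicate 1 and 0.267% in MYC-inhibited replicate 2. The groups did not overlap, although the DMSO libraries differed from each other by about as much as DMSO replicate 2 differed from the nearer treated library. With 2 libraries against 2, an exact two-sided permutation test of a single value such as this one cannot go below p = 0.333. In a pool of whole embryos, fewer cells that express a gene and less of its RNA in each cell cannot be told apart.

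Among the 62 genes, 60 had enough counts to be tested, and 50 of them (83.3%) had a lower fitted level in the MYC-inhibited group, against 48.5% of all 13549 tested genes. The median log2 fold change (log2FC, MYC-inhibited over DMSO) was −0.83 and ranged from −2.61 to 2.05, while the median over all tested genes was 0.04. In CPM scaled by TMM factors, which correct for differences in RNA composition, both MYC-inhibited libraries lay below both DMSO libraries for 38 of the 60 genes (63.3%) and above both for 5 (8.33%). Over all tested genes these shares were 28.3% and 28.9%.

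The quasi-likelihood test of edgeR, at a Benjamini-Hochberg adjusted p under 0.05 and an absolute log2FC over 1, called none of the 60 genes, as it called 0.0% of all tested genes. The smallest adjusted p was 0.333, and 15 of the tRNA enzyme genes had that value. At an unadjusted p under 0.05, 16 (26.7%) were lower and 1 (1.67%) was higher, against 10.1% and 4.72% of all tested genes. None of the 16 overlapped between the groups, which follows largely from their selection by p in the same values. Without DMSO replicate 1 the lower genes at that p numbered 12 (20%), against 7.89% of all tested genes. DESeq2 with transcript lengths as offsets gave 46 of the 62 genes an adjusted p and left it empty for 16. It called 6 lower (13%), namely Pop5, Cdk5rap1, Trmt6, Trmt61b, Tsen15 and Trnt1, against 5.38% of all genes with an adjusted p, and none higher, against 1.04%. DESeq2 on the genes kept for edgeR called 7, and limma on log2 FPKM values called 0. The remaining 56 genes were called by neither edgeR nor DESeq2 with lengths, which does not show that they were equal in the groups. These p-values measure the spread between libraries of pooled embryos, and the sources used here do not say whether the pools came from separate collections.

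**Figure D1:**
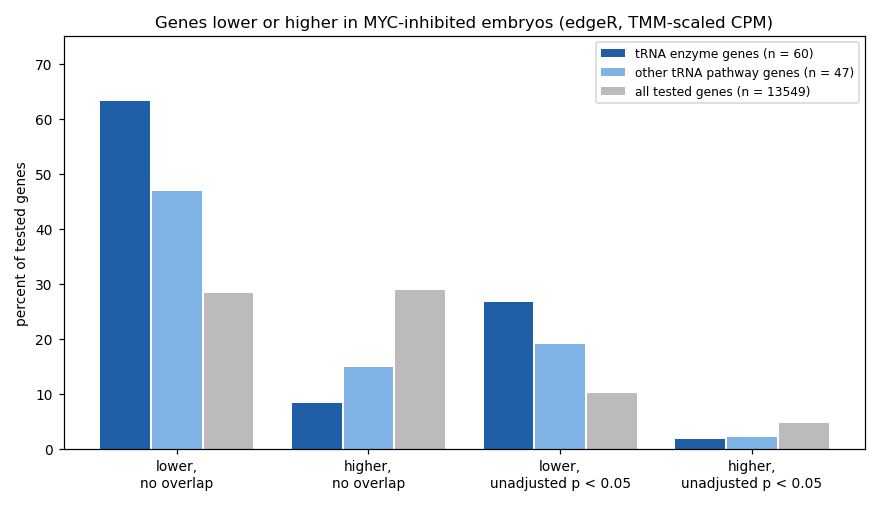
The vertical axis is the percent of tested genes, for 60 tRNA enzyme genes, 47 other genes of the tRNA pathway and all 13549 tested genes, and each set of bars is 1 count: both MYC-inhibited libraries below or above both DMSO libraries, or an unadjusted edgeR p under 0.05 with a lower or higher level. The bars for lower genes are 63.3% and 26.7% for the tRNA enzymes and 28.3% and 10.1% for all genes.

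Part of the difference lay in DMSO replicate 1. After subtracting from each gene its own mean log2 CPM, the median of the tRNA enzyme genes was 0.64 in DMSO replicate 1, 0.08 in DMSO replicate 2, and −0.39 and −0.30 in the MYC-inhibited replicates. For all tested genes these medians ran only from −0.06 to 0.05. DMSO replicate 1 was the highest library for 48 of the 60 genes, against 36.8% of all tested genes, and 14 of the 60 (23.3%) were over 2-fold higher in it than in DMSO replicate 2, against 17.2% of all tested genes. Without it the median log2FC was −0.43. The genes with a log2FC under −1 numbered 25 (41.7%, against 17.8% of all tested genes) with all libraries and 6 (10%, against 9.34%) without it, so that the remaining share was near that of all genes. Of the 50 lower genes, 41 (82%) had a negative log2FC in both fits, which share 3 libraries, and over all tested genes that share was 82.2%. DMSO replicate 2 alone still lay above both MYC-inhibited libraries for 38 genes (63.3%), compared with 38.0% of all tested genes, and below both for 8 (13.3%), compared with 37.2%.

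**Figure D2:**
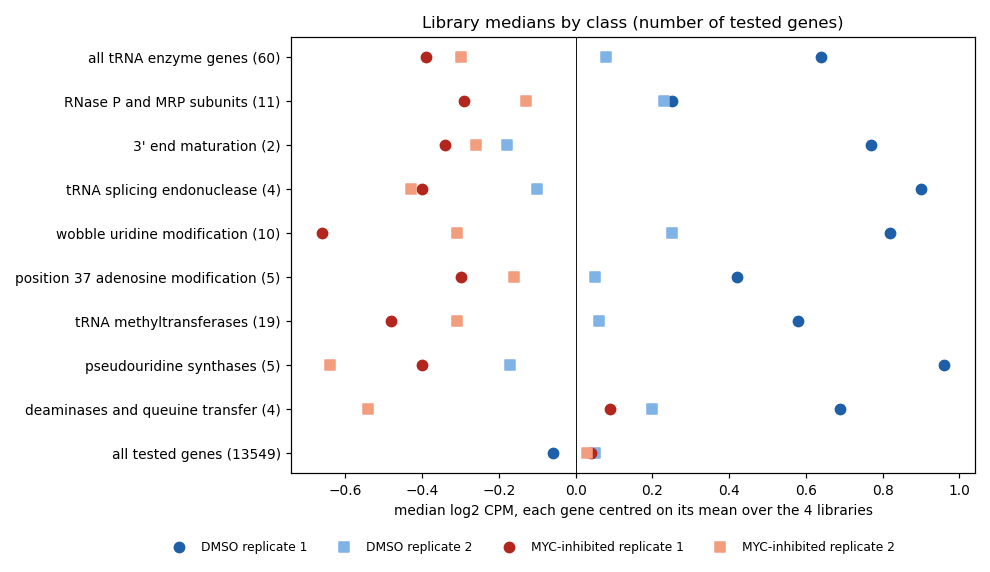
Each point is the median over a class of log2 CPM after subtracting the gene's own mean (horizontal axis, log2 units), with 1 point per library and the class on the vertical axis. DMSO replicate 1 is the rightmost point in every class of tRNA enzyme genes, and for all tested genes the 4 libraries lie between −0.06 and 0.05.

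The genes differed widely in level. Mean FPKM over the 4 libraries ran from 0.07 to 473 with a median of 8.66. It was 10 or more for 28 genes (45.2%) and 100 or more for 8, namely Elp5, Trmt112, Rpp30, Pop7, Rpp25, Trnt1, Rpp38 and Trmt61b. RNase P subunits were the class with the highest median, at 88.4 FPKM, whereas the deaminases and the queuine transferase had a median of 1.80.

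**Figure D3:**
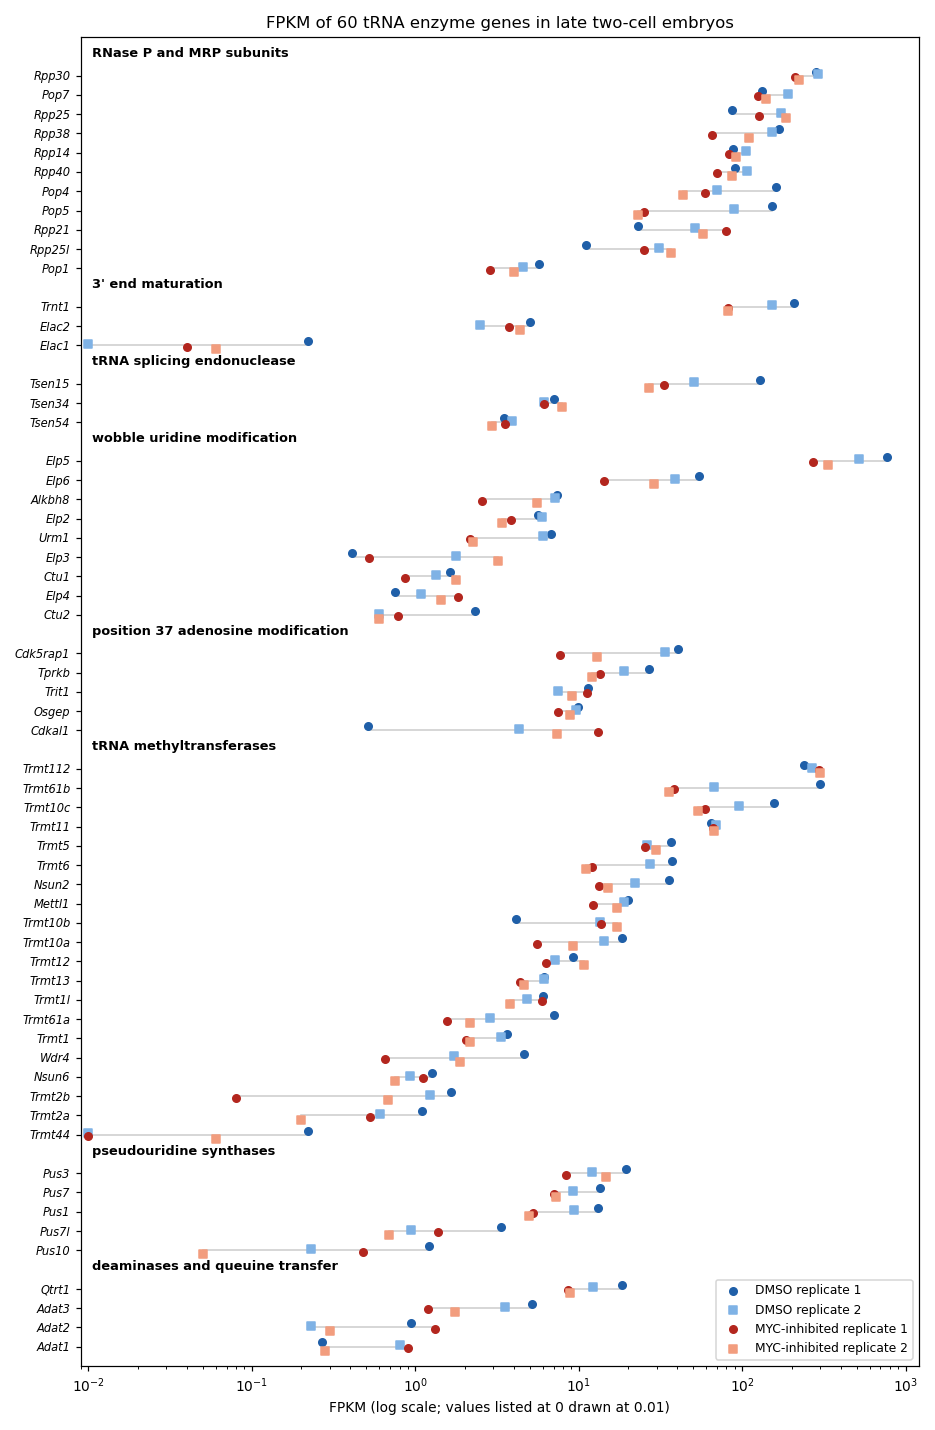
FPKM on a log axis (horizontal, values of 0 drawn at 0.01) is shown for 60 of the 62 genes by class (vertical), with 1 point per library and a grey line from the lowest to the highest. For Pop5, Cdk5rap1, Trmt6 and Trnt1 both MYC-inhibited points are to the left of both DMSO points, and for Cdkal1 they are to the right.

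Because the compound targets MYC, the promoters were searched for the E-box to which MYC and MAX bind, CACGTG, which reads the same on both strands. Windows of 250 bases before annotated transcription starts were available for 50 of the 62 genes in RefSeq's GRCm38.p6 annotation. A gene with several windows was counted once, if any of them held the motif. The motif was present in 6 of the 50 (12.0%), against 6.86% of all 27025 genes with a window and 9.74% of the tested ones. Among the DESeq2-called genes, 4 had a window and 1 of these, Trmt61b, held the motif. Tested genes of the list with the motif had a median log2FC of −0.80 (6 genes) and those without it −0.84 (43 genes). A match is a description of the letters and not evidence of binding. Shown 5′ to 3′ on the gene's strand, with the E-box in capitals, are windows of Trmt61b, Trmt10a and Osgep. Trmt61b (minus strand, chr17:71598762-71599011) is a called gene whose motif starts 9 bases before the start. For Trmt10a (plus strand, chr3:138143549-138143798) the motif is 15 bases before a transcript start that lies inside the gene's annotated span (chr3:138143448-138159821). Osgep (minus strand, chr14:50924894-50925143) is the one gene with 3 copies.
Trmt61b: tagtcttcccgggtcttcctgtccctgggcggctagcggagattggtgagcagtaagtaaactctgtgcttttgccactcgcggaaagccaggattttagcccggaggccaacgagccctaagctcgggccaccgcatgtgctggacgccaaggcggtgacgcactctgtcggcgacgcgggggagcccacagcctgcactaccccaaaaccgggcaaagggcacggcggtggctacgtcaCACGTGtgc
Trmt10a: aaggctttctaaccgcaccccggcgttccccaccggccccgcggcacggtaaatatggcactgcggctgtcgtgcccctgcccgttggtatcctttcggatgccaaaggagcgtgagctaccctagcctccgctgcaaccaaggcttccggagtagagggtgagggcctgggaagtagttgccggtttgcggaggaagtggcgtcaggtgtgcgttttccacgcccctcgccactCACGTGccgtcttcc
Osgep: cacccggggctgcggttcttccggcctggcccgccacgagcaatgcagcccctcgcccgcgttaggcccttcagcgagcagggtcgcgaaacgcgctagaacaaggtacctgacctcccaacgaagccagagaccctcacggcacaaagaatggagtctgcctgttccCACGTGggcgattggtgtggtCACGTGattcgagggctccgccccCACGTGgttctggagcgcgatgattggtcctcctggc

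The protein subunits of RNase P, most of which also belong to the ribosomal RNA-processing enzyme RNase MRP, were 11 genes with a median log2FC of −0.47 (−0.42 without DMSO replicate 1). Of these, 8 were lower, all 8 (72.7% of the 11) without overlap between the groups in scaled CPM, against 28.3% of all tested genes. An unadjusted edgeR p under 0.05 was held by 3 lower genes (27.3%), against 10.1%. The centred class medians of the DMSO libraries were closer to each other here than in any other class, at 0.25 and 0.23. They were −0.29 and −0.13 in the MYC-inhibited libraries. Single genes still differed between the controls. In scaled CPM, 2 of the 11 (18.2%, against 17.2% of all tested genes) were over 2-fold higher in DMSO replicate 1 than in DMSO replicate 2. Another 1 was over 2-fold lower. Pop5, a core subunit of both enzymes (chr5:115235588-115240972, GRCm38.p6), had the smallest p of all 62 genes. Its FPKM was 152 and 89.5 in the DMSO replicates and 25.0 and 23.1 in the MYC-inhibited replicates, or 121 ± 44.2 against 24 ± 1.32 (SD, n = 2). Both treated libraries were thus far below both controls and close to each other. The log2FC of Pop5 was −2.50 (SE 0.47) in edgeR, at an adjusted p of 0.333, and −1.89 without DMSO replicate 1. DESeq2 gave it an adjusted p of 0.000394, within a range over all alternatives from 0.000168 to 0.992, the latter without MYC-inhibited replicate 1.

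Other subunits moved less and not all one way. Pop4 had 162, 70.35, 59.5 and 43.1 FPKM in DMSO replicates 1 and 2 and MYC-inhibited replicates 1 and 2, and its log2FC of −1.36 (SE 0.53) was −0.45 without DMSO replicate 1, so that most of it rested on that library. Rpp38 had 168, 153, 65.3 and 110.35 FPKM in the same order, and a log2FC of −1.02 (SE 0.41) that was −0.80 without DMSO replicate 1. Rpp30, the most abundant subunit (chr19:36083689-36104773), had 282, 289, 209.6 and 222 FPKM. Its control libraries were nearly equal and above both treated ones, and its log2FC of −0.54 (SE 0.34), or −0.42 without DMSO replicate 1, had an edgeR adjusted p over 0.05. Rpp40, Pop7, Rpp14 and Pop1 had log2FC values of −0.47, −0.41, −0.28 and −0.73, which were −0.45, −0.53, −0.27 and −0.40 without DMSO replicate 1. Rpp21, a subunit of RNase P but not of RNase MRP (chr17:36255673-36257846), was higher without overlap, with 23.1 and 51.1 FPKM in the DMSO replicates and 79.2 and 57.3 in the MYC-inhibited ones. Its log2FC was 0.80 (SE 0.55), or 0.44 without DMSO replicate 1, which held the lowest value. The paralogues Rpp25 and Rpp25l had log2FC values of 0.16 and 0.48 with overlapping groups, or −0.15 and 0.01 without DMSO replicate 1.

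Of the 3 enzymes that act at the 3′ end of the precursor, 2 had a DESeq2 adjusted p. DESeq2 called 1 of these lower, against 5.38% of all genes with an adjusted p. Trnt1, which adds the CCA end to cytosolic and mitochondrial tRNAs (chr6:106769138-106782474), had 206 and 152 FPKM in the DMSO replicates, and 82.11 and 82.14 in the MYC-inhibited replicates. The treated libraries were nearly equal and both below the controls, at 82.1 ± 0.0212 against 179 ± 38.5 (SD, n = 2). Its log2FC was −1.29 (SE 0.39), and −0.89 without DMSO replicate 1, and DESeq2 gave an adjusted p of 0.0474 (range over the alternatives 0.000712 to 0.992). Its exons share 132 bases with those of Crbn on the opposite strand, whose counts were higher in the treated libraries (log2FC 1.21), and reads from the shared bases cannot be assigned without strand. Elac2, the long form of RNase Z, had 5.01, 2.48, 3.75 and 4.38 FPKM and a log2FC of −0.07 (SE 0.60) with overlapping groups, or 0.71 without DMSO replicate 1, and its difference from Trnt1 was not tested. Elac1, the short form, was listed with 20, 0, 4 and 6 counts and was not tested.

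The tRNA splicing endonuclease, with 4 genes, had a median log2FC of −1.05 (−0.38 without DMSO replicate 1). Tsen15, a structural subunit (chr1:152370735-152386682), had 129, 50.9, 33.0 and 26.7 FPKM in DMSO replicates 1 and 2 and MYC-inhibited replicates 1 and 2. DMSO replicate 1 was far above the rest, and DMSO replicate 2 still above both treated libraries. The log2FC was −1.78 (SE 0.57) and −0.76 without DMSO replicate 1, and DESeq2 gave an adjusted p of 0.0334 (range over the alternatives 0.000522 to 0.992). Tsen34, a catalytic subunit, and Tsen54 had 6.13 to 7.91 and 2.95 to 3.90 FPKM over the libraries, with log2FC values of −0.05 and −0.32, or 0.20 and −0.26 without DMSO replicate 1.

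The enzymes that modify the wobble uridine of the anticodon were 10 genes with a median log2FC of −1.11 (−0.62 without DMSO replicate 1). Of these, 8 were lower, and 3 lower genes (30.0%) had an unadjusted edgeR p under 0.05, against 10.1% of all tested genes. DESeq2 called none of the 7 to which it gave an adjusted p, against 5.38% called lower of all genes. Most belong to Elongator, which adds a carboxymethyl group to the base. Elp5, a subunit of its accessory ring (chr11:69968224-69981447), had the highest mean FPKM of all the tRNA enzyme genes, with 767 and 519 in the DMSO replicates and 269 and 336 in the MYC-inhibited replicates. Both treated libraries were below both controls, and the log2FC of −1.23 (SE 0.41) was −0.78 without DMSO replicate 1. DESeq2 gave Elp5 an adjusted p of 0.0578 (range over the alternatives 0.000925 to 0.992). Elp6, of the same ring, had 54.7, 38.6, 14.2 and 28.7 FPKM and a log2FC of −1.29 (SE 0.49), or −0.85 without DMSO replicate 1. Elp4, the ring's remaining subunit, was in contrast higher without overlap, at 0.75, 1.08, 1.82 and 1.43 FPKM, with a log2FC of 0.71 (SE 0.55), or 0.59 without DMSO replicate 1. Of the core subunits, Elp2 had a log2FC of −0.82 (−0.72 without DMSO replicate 1), and the catalytic subunit Elp3 had 0.41, 1.76, 0.52 and 3.22 FPKM, with the lower and the higher values in both groups.

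Wobble uridine is also thiolated. Urm1, the ubiquitin-like sulfur carrier of that reaction (chr2:29827389-29844996), had 6.78 and 6.07 FPKM in the DMSO replicates and 2.17 and 2.25 in the MYC-inhibited replicates. Replicates lay close together in both groups, with 6.43 ± 0.502 against 2.21 ± 0.0566 FPKM (SD, n = 2). The log2FC was −1.69 (SE 0.56), and between −1.88 and −1.46 whichever library was left out, and the DESeq2 adjusted p was 0.0864 (range over the alternatives 0.0245 to 0.992). The thiolase subunits Ctu1 and Ctu2 had log2FC values of −0.34 and −1.28 at 0.6 to 2.3 FPKM, with overlapping groups. Without DMSO replicate 1 these were −0.03 and 0.22, so that the sign of Ctu2 turned. Ctu2 shares 1490 exonic bases with Piezo1 on the opposite strand. Alkbh8, which completes the carboxymethyl modification with a methyl group, had 7.40, 7.15, 2.54 and 5.58 FPKM and a log2FC of −0.99 (−0.82 without DMSO replicate 1).

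The adenosine beside the anticodon is modified by enzymes that gave both the largest difference in the higher direction and one of the called lower genes. Cdk5rap1, which adds a methylthio group in mitochondrial tRNAs (chr2:154222011-154373038), had 40.7 and 33.8 FPKM in the DMSO replicates and 7.71 and 12.99 in the MYC-inhibited replicates. The control libraries were close, and the difference was kept without DMSO replicate 1, with a log2FC of −2.01 (SE 0.46) and −1.71 respectively. The adjusted p was 0.333 in edgeR and 0.0075 in DESeq2, with a range over the alternatives from 0.0016 to 0.992. Cdkal1, its cytosolic relative, which adds the methylthio group to threonylcarbamoyl adenosine in a lysine tRNA (chr13:29191746-29855683), had 0.51 and 4.28 FPKM in the DMSO replicates and 13.1 and 7.40 in the MYC-inhibited ones. It was thus higher in both treated libraries, but the controls differed from each other more than the nearest libraries of the groups did. Its log2FC was 2.05 (SE 0.87) and 1.26 without DMSO replicate 1, at an adjusted p of 0.334 in edgeR and 0.0781 in DESeq2 (range over the alternatives 0.00153 to 0.992). These methylthiotransferases had opposite signs in the same libraries, and the difference between them was not tested. Tprkb and Osgep, subunits of the complex that makes threonylcarbamoyl adenosine, had log2FC values of −1.0 and −0.41, or −0.55 and −0.24 without DMSO replicate 1. Trit1, which adds an isopentenyl group, had 11.3, 7.41, 11.1 and 9.11 FPKM and a log2FC of −0.05, or 0.45 without DMSO replicate 1.

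Methyltransferases and their partners were the largest class. Of the 20 genes, 19 were tested, and their median log2FC was −0.92 (−0.44 without DMSO replicate 1). Of these, 17 were lower, 13 of them (68.4% of those tested) without overlap, against 28.3% of all tested genes. An unadjusted edgeR p under 0.05 was held by 5 lower genes (26.3%), against 10.1%. Trmt6, the non-catalytic subunit of the enzyme that methylates adenosine in the T loop (chr2:132804207-132816054), had 37.04 and 27.2 FPKM in the DMSO replicates and 12.1 and 11.0 in the MYC-inhibited replicates. The treated libraries were close together and below both controls. Its log2FC was −1.64 (SE 0.42) and −1.23 without DMSO replicate 1, and DESeq2 gave an adjusted p of 0.0202 (range over the alternatives 0.000849 to 0.992). Trmt61a, the catalytic partner of Trmt6, had 7.01, 2.86, 1.56 and 2.15 FPKM. Its log2FC of −1.44 (SE 0.72) was −0.41 without DMSO replicate 1.

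Trmt61b, which makes the corresponding methyladenosine in mitochondrial tRNAs (chr17:71557027-71598761), had the lowest log2FC of the 60 genes. Its FPKM was 299.7 in DMSO replicate 1, 67.0 in DMSO replicate 2, and 38.2 and 35.6 in the MYC-inhibited replicates. The controls differed several-fold from each other, so that the log2FC of −2.61 (SE 0.75) was −0.91 without DMSO replicate 1. DESeq2 gave it an adjusted p of 0.0075 (range over the alternatives 3.12e-05 to 0.782). A stretch of 402 exonic bases is shared with Spdya on the opposite strand, which had 202, 83, 20 and 61 counts. Trmt10c, a methyltransferase that is also a subunit of the protein-only RNase P of mitochondria, had 157, 95.9, 58.8 and 53.75 FPKM and a log2FC of −1.34 that was −0.77 without DMSO replicate 1. DESeq2 gave Trmt10c an adjusted p of 0.0546 (range over the alternatives 0.000672 to 0.992), and called it lower when run on the genes kept for edgeR. Trmt10a, which methylates guanosine and carries the E-box shown above, had 18.4, 14.2, 5.58 and 9.16 FPKM and a log2FC of −1.31 that was −0.94 without DMSO replicate 1. Nsun2, which methylates cytosine, had 35.4, 22.2, 13.4 and 14.97 FPKM and a log2FC of −1.20 that was −0.65 without DMSO replicate 1. For all of Trmt10c, Trmt10a and Nsun2 both treated libraries were below both controls.

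Among the other genes of the class, Trmt11 and Trmt112 had nearly level values. Trmt11, a guanosine methyltransferase, had 64.6, 68.9, 66.1 and 67.4 FPKM and a log2FC of −0.14 (−0.05 without DMSO replicate 1). Trmt112, the small protein that activates Trmt11 and other methyltransferases (chr19:6909698-6911028), was the most abundant gene of the class, with 239, 266, 296 and 299.7 FPKM. It was higher in both treated libraries, with a log2FC of 0.11 (SE 0.34) that was 0.17 without DMSO replicate 1. The genome holds 2 pseudogenes of it, and its exons share 360 bases with Prdx5 and 73 with Esrra on the opposite strand. Its counts are therefore uncertain. Mettl1 and Wdr4, the subunits of the enzyme that makes methylguanosine in the variable loop, had log2FC values of −0.55 and −1.53, or −0.35 and −0.45 without DMSO replicate 1, and the groups of Wdr4 overlapped. Trmt10b was higher without overlap, at 4.13 and 13.5 FPKM in the DMSO replicates against 13.6 and 17.1, and its log2FC of 0.72 was 0.18 without DMSO replicate 1. Trmt44 was listed with 15, 0, 0 and 4 counts and was not tested.

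**Figure D4:**
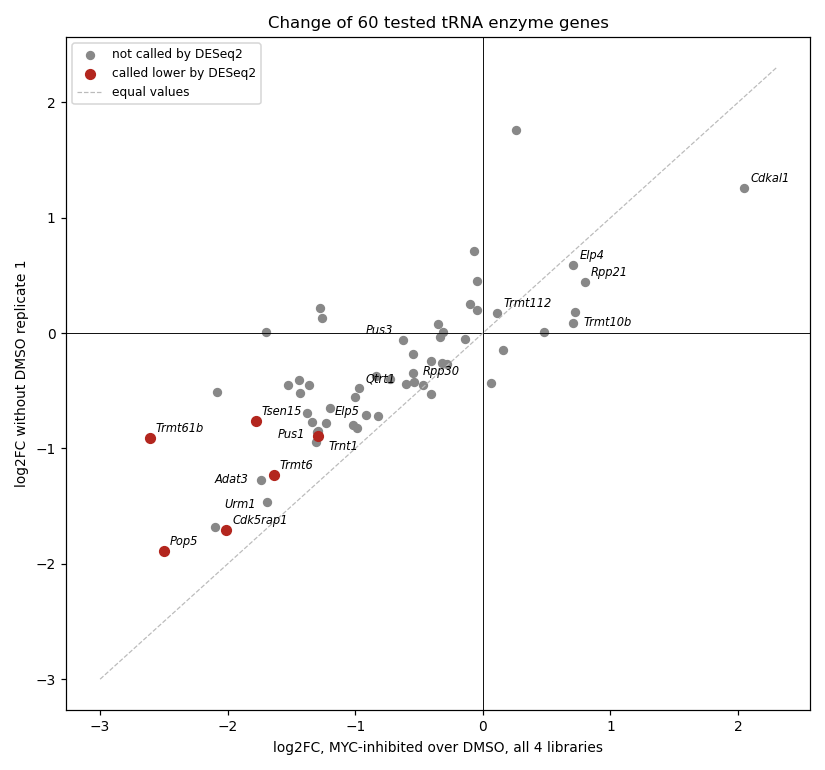
The log2FC of the 60 tested genes with all 4 libraries (horizontal axis) is plotted against that without DMSO replicate 1 (vertical axis), with the 6 genes called lower by DESeq2 in red and a dashed line at equal values. Cdk5rap1 (−2.01 and −1.71) lies nearer the line than Pop5 (−2.50 and −1.89), and Trmt61b (−2.61 and −0.91) lies far from it.

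The 5 pseudouridine synthases all had negative log2FC values, from −1.70 to −0.63, with a median of −1.26. Without DMSO replicate 1 that median was −0.06, so most of the class's difference between the groups rested on 1 control library. Pus1 (chr5:110773667-110780649), which acts on cytosolic and mitochondrial tRNAs, kept more of it, −0.86, with 13.01, 9.28, 5.23 and 4.96 FPKM and a log2FC of −1.30 (SE 0.54) over all libraries. Pus7 had 13.6, 9.24, 7.03 and 7.24 FPKM and a log2FC of −0.84 (−0.37 without DMSO replicate 1). Pus3 had 19.4, 12.0, 8.30 and 14.6 FPKM with overlapping groups and a log2FC of −0.63 (−0.06 without DMSO replicate 1), and it shares 1550 exonic bases with Hyls1 on the opposite strand. Pus7l and Pus10 had log2FC values of −1.26 and −1.70, which were 0.13 and 0.01 without DMSO replicate 1.

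The deaminase genes, whose products turn adenosine into inosine, had means of under 3 FPKM, and the queuine transferase was at a higher level. Adat3, the non-catalytic partner of Adat2 in the wobble deaminase, had 5.17 and 3.55 FPKM in the DMSO replicates and 1.19 and 1.74 in the MYC-inhibited replicates, with a log2FC of −1.74 (SE 0.80), or −1.27 without DMSO replicate 1. Its exons share 1341 bases with Gm49322 and 70 bases with Scamp4, both on the same strand. Gm49322 is not among the quantified genes, and Scamp4 had 494, 165, 155 and 66 counts (log2FC −1.89), so the level of Adat3 is uncertain. Adat2 had 21, 5, 32 and 7 counts, and Adat1 15, 42, 54 and 16, with overlapping groups. Qtrt1, the catalytic subunit that inserts queuine, had 18.4, 12.2, 8.62 and 8.87 FPKM and a log2FC of −0.97 (−0.48 without DMSO replicate 1).

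A second list held other genes of the tRNA pathway, such as those for further modification enzymes, tRNA ligase and tRNA transport. Of its 48 listed genes, 47 were tested, with a median log2FC of −0.78 (−0.41 without DMSO replicate 1). There were 36 lower and 11 higher, and 9 (19.1%) and 1 (2.13%) had an unadjusted p under 0.05, against 10.1% and 4.72% of all tested genes. The groups did not overlap for 22 lower (46.8%) and 7 higher genes (14.9%), against 28.3% and 28.9%. DESeq2 called 1 lower and 1 higher of 37 with an adjusted p, and the lower share of 2.7% was under the 5.38% of all genes. The lower one was Trp53rkb, a kinase gene of the threonylcarbamoyl adenosine complex, with 407, 133, 16 and 64 counts and a log2FC of −3.05, or −1.87 without DMSO replicate 1 (DESeq2 adjusted p 0.0169, range over the alternatives 0.00432 to 0.992). Its near copy Trp53rka makes these counts uncertain. The higher one was 2700060E02Rik (Rtraf), a subunit of the tRNA ligase complex that joins the cut exons, with 88.7, 175, 382 and 319 FPKM. Both treated libraries were above both controls, and its log2FC of 1.31 (SE 0.40) was 1.0 without DMSO replicate 1 (DESeq2 adjusted p 0.0436, range over the alternatives 0.00116 to 0.992). Yrdc, which makes the threonylcarbamoyl donor, had 79.7, 43.2, 27.1 and 28.0 FPKM and a log2FC of −1.34, or −0.65 without DMSO replicate 1.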

How the data were processed

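The authors aligned read pairs of amplified, polyadenylated RNA to mm10 with STAR (2.7.10), kept those with a unique position and estimated gene levels by RSEM (1.3.3). The files give, per the labels and headers, the expected count, an RSEM estimate that is not normalized (3.97% to 4.49% of values not whole), the FPKM and TPM deposited by the authors, which are scaled to effective length and library, and RSEM's lengths (another quantity, also deposited). TPM was not used. A strand setting for counting is not given in the sources used here, and 22 of the 62 genes share exonic bases with another gene in the annotation. Not all of these overlaps are named beside their genes.

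Samples were grouped by title. Rounded counts were filtered with filterByExpr (minimum count 10, minimum total 15; 13549 genes) and tested with edgeR 4.0.16 in R 4.3.3 (TMM factors 0.873 to 1.06, robust quasi-likelihood, Benjamini-Hochberg adjustment over all genes, biological coefficient of variation 0.557), at the study's thresholds. As alternatives, DESeq2 1.42.0 was run with effective lengths as offsets on all genes with a count, and without offsets on the filtered genes. An empty adjusted p was kept empty. With a minimum mean FPKM of 1, limma 3.58.1 was run on log2(FPKM + 1) or log2(FPKM + 0.1). Further alternatives were other scalings and filters, a replicate block, and leaving out each library. Scripts were tested on simulated data. Reads carry no molecular identifiers, so depth gives counting error only. Centred values used log2(CPM + 0.5).

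The members and lists were chosen with earlier results of these data known. Genes were named by rule: each gene called by DESeq2 with lengths, in each class the smallest edgeR p and the highest mean FPKM, genes higher in the treated group without overlap at a mean FPKM of at least 1, and, of other tRNA pathway genes, those called by DESeq2 or, as fewer than 3 were called, the 3 with the smallest p. Other subunits and class members are given as context, chosen after their values were seen. Values of 2 of the 62 genes are not reported singly here. One symbol of 51 in the second list was not matched. Counts without overlap under other scalings, and with DMSO replicate 2 alone, were added after the data were seen.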

Additional observations from a re-analysis of the deposited data

How the results depend on the processing

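The number of tRNA enzyme genes called depended on the test. Against 0 in edgeR, there were 7 calls with DESeq2 on the filtered genes, 6 with DESeq2 and effective lengths and 6 in edgeR with no filter on low counts. The same settings called 566, 512 and 644 of all genes, against 0. With a replicate block the counts were 1 (Pop5) and 44. The replicate numbers do not pair the libraries by the labels, and the deviations of same-numbered libraries from their group means correlated at r = −0.034. Leaving out 1 library gave 0 to 24 calls among the tRNA enzyme genes and 2 to 4213 among all genes, both highest without DMSO replicate 2, and a lone library is then assumed to vary like the other group. The number of genes lower at an unadjusted p under 0.05, 16 with all libraries, was 3 to 28 with a library left out (3 without MYC-inhibited replicate 1, 7 without MYC-inhibited replicate 2, 28 without DMSO replicate 2) and 11 to 18 otherwise. The median log2FC of −0.83 was −0.46 with limma on log2(FPKM + 1) and −0.64 on log2(FPKM + 0.1), which change the measure, the filter and the scaling together, and −1.11 to −0.43 with a library left out. Library totals moved the median of all genes to 0.17, and limma to 0.12 and 0.15. The genes lower without overlap numbered 33 to 38 under other scalings or with DMSO replicate 2 alone. Those higher numbered 5 under other scalings and 8 with DMSO replicate 2 alone. With DMSO replicate 2 alone, 38.0% of all tested genes were lower without overlap and 37.2% higher. Shares over all tested genes under the other scalings are not given here, so those counts have no background. For the named genes, 203 comparisons with an alternative kept direction and side of the threshold, 31 passed the threshold that edgeR did not reach, and none reversed. The fit without DMSO replicate 2 gave the largest part of the 31, with DMSO replicate 1 as its only control. An empty adjusted p, as for Adat3 in DESeq2, was counted as keeping its side. Only the tRNA enzyme genes named by rule entered these comparisons. Of all 60 tested genes, 9 lower and 2 higher ones changed sign without DMSO replicate 1, among them Elac2, Ctu2 and Rpp25. The cause of these changes was not tested.

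Adat1, Adat2, Elac1 and Trmt44 had at most 54 counts in a library, the lowest maxima among the tRNA enzyme genes described here. Pus10 was also at low depth, with 69 and 14 counts in the DMSO replicates and 29 and 3 in the MYC-inhibited replicates.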

Other observations

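The deposited mean transcript length, which RSEM weights by its estimate of each transcript's share, differed between libraries for some of the 17 tRNA enzyme genes with more than 1 annotated transcript. The following were chosen after their values were seen. For Trmt61a it was 2061 and 1992 bases in DMSO replicates 1 and 2, and 2433 and 2134 in MYC-inhibited replicates 1 and 2. For Nsun6, a cytosine methyltransferase, it was 2810 and 2885 bases in the DMSO replicates and 2420 and 2764 in the MYC-inhibited ones. For Pus10 it was 3263 and 3590 bases against 3177 in both MYC-inhibited libraries. These differences were not tested, and they rest on few counts.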
